A study of Mus musculus with 8 samples.

Results

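The genes described here are 8 tumour suppressor and growth control genes, Cdkn2a, Cdkn2b, Cdkn1a, Trp53, Rb1, Apc, Socs1 and Myc, followed through a table of whole-genome bisulfite methylation levels of mouse liver. A position belonged to a gene if it lay inside the RefSeq gene span or within 3 kb of either side, which took in 9034 of the 30729668 listed cytosines on placed chromosomes. The question put to these positions was whether the CpG-dense ends of the genes were more methylated in nonalcoholic steatohepatitis (NASH). The livers came from male C57BL/6J mice, wild type in every library, bought at 8 weeks of age and then kept for 28 weeks on either a normal diet (ND) or a diet rich in fat, cholesterol and fructose that gives NASH. Each diet had 4 libraries, named here NASH 1 to NASH 4 and ND 1 to ND 4. The diets were taken from the sample titles and the column names. The treatment field of the labels has them the other way round, and if that field were right every direction below would be reversed. The labels do not say whether each library is a separate mouse, so the p-values measure the spread between these libraries.

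Levels are percentages of methylated cytosines per position. The table holds no read numbers, which leaves depth unknown, and a listed 0 may also be a position without reads. Library means lay between 71.0% and 72.3%, and exact zeros made up 12.3% to 13.1% of positions. Listed positions run 1 base above the mm10 coordinate, and region coordinates are given as listed. In whole liver, a change in the share of cells carrying a mark and a change of level in every cell cannot be told apart.

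Cytosines followed by guanine are methylated on both strands over most of a mammalian genome, while the dense CpG clusters at gene starts are usually left unmethylated. Methylation of such a start is a known way by which tumours silence the Cdkn2a locus and other growth brakes. The genes covered here form linked controls of the cell cycle: cyclin-dependent kinase inhibitors act before the retinoblastoma protein, p53 induces Cdkn1a, Apc holds back beta-catenin, Socs1 restrains cytokine signalling and Myc drives growth.

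The starts themselves show how far the genes differ in CpG density. Of the 8 genes, 5 had entries in the RefSeq promoter table (GRCm38.p6), with 7 start sites between them, and the 250 bases before each start are printed with every CG in capitals. Cdkn2a has a start for each of its products, Arf and the kinase inhibitor Ink4a, and Cdkn1a has an upstream and an internal start.
Cdkn2a Arf start, chr4:89294620-89294869, minus strand: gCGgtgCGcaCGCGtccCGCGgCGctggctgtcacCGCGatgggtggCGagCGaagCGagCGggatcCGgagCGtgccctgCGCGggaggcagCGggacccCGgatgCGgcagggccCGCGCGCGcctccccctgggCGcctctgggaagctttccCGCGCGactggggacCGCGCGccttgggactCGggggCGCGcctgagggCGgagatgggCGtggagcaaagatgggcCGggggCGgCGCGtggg
Cdkn2a Ink4a start, chr4:89282193-89282442, minus strand: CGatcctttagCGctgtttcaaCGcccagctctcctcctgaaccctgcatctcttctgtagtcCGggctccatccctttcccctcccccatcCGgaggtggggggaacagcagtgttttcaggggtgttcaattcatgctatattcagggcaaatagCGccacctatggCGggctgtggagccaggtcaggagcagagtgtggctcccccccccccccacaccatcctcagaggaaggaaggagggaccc
Cdkn2b start, chr4:89311033-89311282, minus strand: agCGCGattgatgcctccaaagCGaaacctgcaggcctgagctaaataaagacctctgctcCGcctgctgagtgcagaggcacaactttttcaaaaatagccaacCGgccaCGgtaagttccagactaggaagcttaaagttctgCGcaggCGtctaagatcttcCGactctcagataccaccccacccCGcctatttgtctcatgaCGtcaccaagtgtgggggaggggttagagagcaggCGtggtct
Cdkn1a upstream start, chr17:29090729-29090978, plus strand: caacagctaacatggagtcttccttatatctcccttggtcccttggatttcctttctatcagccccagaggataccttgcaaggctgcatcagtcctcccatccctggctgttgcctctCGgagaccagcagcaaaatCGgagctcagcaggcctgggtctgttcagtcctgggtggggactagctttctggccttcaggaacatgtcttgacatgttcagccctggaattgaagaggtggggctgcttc
Cdkn1a internal start, chr17:29093519-29093768, plus strand: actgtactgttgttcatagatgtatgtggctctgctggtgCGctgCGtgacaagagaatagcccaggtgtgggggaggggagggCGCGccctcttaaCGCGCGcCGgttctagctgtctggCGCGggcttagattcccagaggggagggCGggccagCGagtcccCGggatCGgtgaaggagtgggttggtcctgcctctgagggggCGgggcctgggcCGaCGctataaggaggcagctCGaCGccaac
Trp53 start, chr11:69580109-69580358, plus strand: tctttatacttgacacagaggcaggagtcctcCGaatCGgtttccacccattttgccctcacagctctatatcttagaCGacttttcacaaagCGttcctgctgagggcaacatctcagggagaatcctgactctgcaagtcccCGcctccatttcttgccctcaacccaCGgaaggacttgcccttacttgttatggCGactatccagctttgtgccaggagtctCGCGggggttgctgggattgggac
Socs1 start, chr16:10785537-10785786, minus strand: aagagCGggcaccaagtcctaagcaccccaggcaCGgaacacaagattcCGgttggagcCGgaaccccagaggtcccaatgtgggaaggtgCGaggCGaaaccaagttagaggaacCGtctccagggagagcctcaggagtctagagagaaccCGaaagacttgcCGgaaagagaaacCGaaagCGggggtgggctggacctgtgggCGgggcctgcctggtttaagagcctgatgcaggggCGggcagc

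Of these windows the Arf start held the most CpGs, 40 in 250 bases, and stood at 0.245% ± 0.317 (SD, n = 4) in NASH and 0.635% ± 0.437 in ND. The Ink4a start had 7 CpGs and stood at 2.40% ± 0.973 in NASH and 2.20% ± 3.32 in ND. The Cdkn2b window, with 12 CpGs, was at 2.31% ± 1.27 and 1.09% ± 1.49, the Trp53 window, with 9, at 0.799% ± 0.927 and 0.633% ± 0.584, and the Socs1 window, with 13, at 0.805% ± 1.61 and 0.881% ± 1.21. The exception was the upstream Cdkn1a start, which held 2 CpGs and was methylated at 88.0% ± 6.30 in NASH and 85.6% ± 7.57 in ND, whereas the internal Cdkn1a start with its 19 CpGs stood at 2.01% ± 1.18 and 0.735% ± 1.15. The letters CATGNNNNNNCATG, the spacing of a pair of p53 half-site cores, occurred once in the upstream Cdkn1a window and in no other window printed here, against 0.440% of 14768 protein-coding start windows. That match contains no CG. The GC box GGGCGG, searched on both strands, occurred 2 times each at the Arf, internal Cdkn1a and Socs1 starts, not in the other printed windows, and in 44.2% of all windows.

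No CpG-dense stretch of these genes was called as more methylated in NASH. A stretch was a run of positions with at least 20 listed cytosines within 200 bases, and the 8 genes held 32 of them. By limma with Benjamini-Hochberg adjustment over all 53572 stretches of the table, 0 of the 32 were called at an adjusted p of 0.05, beside 0% of all stretches, and the smallest adjusted p was 0.861. At an unadjusted p under 0.05 there were 0 of the 32, against 5.6% of all stretches. NASH was higher in 15 of the 32 and lower in 17, with a median difference of -0.0616 percentage points, and the groups failed to overlap in 0 of them, against a background of 3.94%. Of the 12 stretches at a gene end or start, 11 had a mean level under 10% and their differences ran from -4.49 to 1.002 points. Among the 20 elsewhere, 10 were over 80% methylated, 5 lay between and 5 were under 10%.

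**Figure D1:**
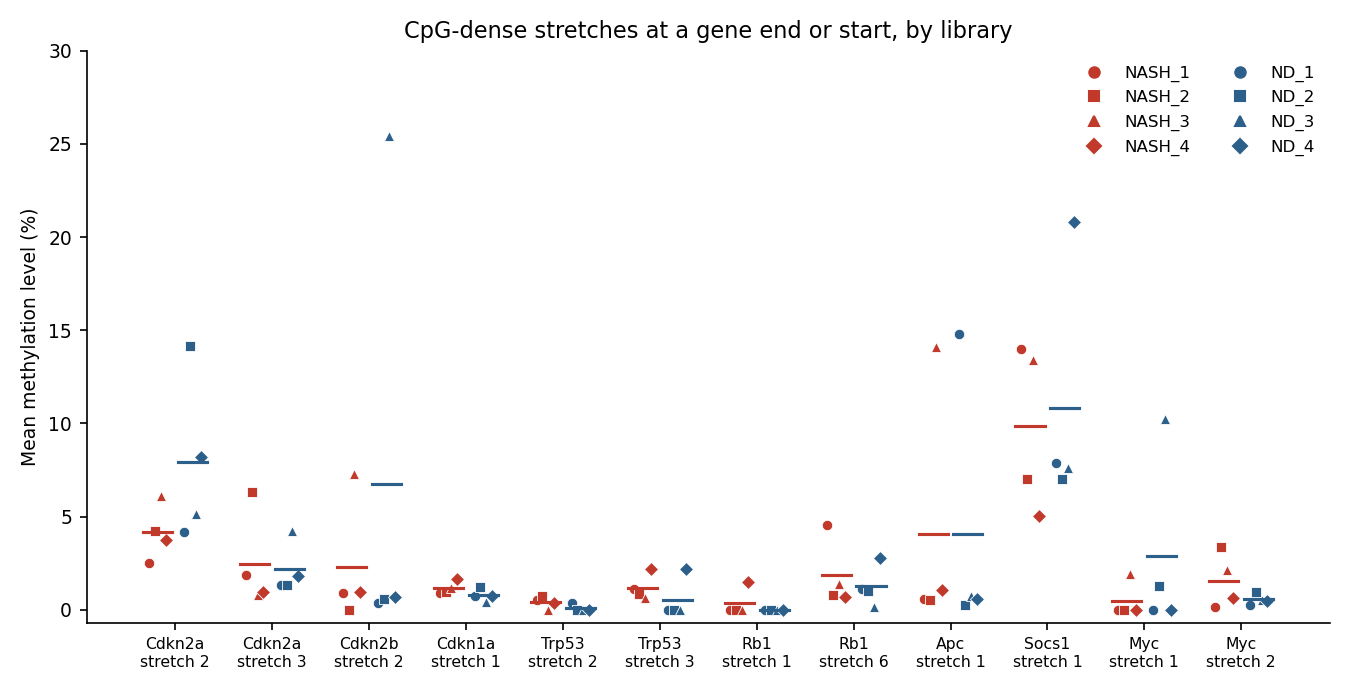
Mean methylation level in percent of the 12 CpG-dense stretches at a gene end or start, one point per library with NASH in red and ND in blue, and a bar at each group mean. Most libraries sit under 5%, and single libraries stand apart at Cdkn2b stretch 2 (25.4% in ND 3), Apc stretch 1 (14.1% in NASH 3, 14.8% in ND 1) and Socs1 stretch 1 (20.8% in ND 4).

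Among the kinase inhibitors, Cdkn2a lies on chromosome 4 (89274473 to 89294619) and carried 3 stretches. At the Arf start, stretch 3 (89294183 to 89295625, 315 positions) measured 1.84%, 6.30%, 0.804% and 0.966% in NASH 1 to 4 and 1.31%, 1.35%, 4.25% and 1.79% in ND 1 to 4. NASH 2 and ND 3 were the high libraries of their groups, and the difference was 0.303 points (95% interval -2.76 to 3.36, adjusted p = 0.968, limma). At the Ink4a start, stretch 2 (89281958 to 89282175, 40 positions) measured 2.50%, 4.25%, 6.10% and 3.74% in NASH and 4.17%, 14.1%, 5.15% and 8.20% in ND. ND 2 was highest and the groups overlapped, with a difference of -3.77 points (95% interval -8.57 to 1.03, adjusted p = 0.861, limma). Stretch 1, inside the gene near its other end, averaged 4.70% ± 2.50 in NASH and 8.04% ± 4.76 in ND. Both the Arf start and the Cdkn2b stretches overlap the gene Gm12610, so their levels cannot be given to a single gene.

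Cdkn2b, the neighbouring kinase inhibitor, lies at 89306289 to 89311032 on the same chromosome. Its start stretch, stretch 2 (89310448 to 89311118, 117 positions), measured 0.876%, 0%, 7.26% and 0.941% in NASH 1 to 4 and 0.336%, 0.598%, 25.4% and 0.684% in ND 1 to 4. The other 6 libraries were under 1% and the high values fell in 1 library of each diet. The difference was -4.49 points (SE 5.46, adjusted p = 0.872, limma), and without ND 3 it was 1.73 points. The gene's other stretch was partly methylated and uneven, with NASH libraries at 13.6% to 36.4% and ND libraries at 7.38% to 39.9%.

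Cdkn1a encodes the kinase inhibitor that p53 induces, and lies on chromosome 17 (29090979 to 29100722). The stretch at its internal start (29093560 to 29095715, 336 positions) measured 0.876%, 0.930%, 1.18% and 1.68% in NASH and 0.722%, 1.22%, 0.394% and 0.744% in ND. Its groups overlapped at about 1%, and the difference of 0.395 points had a 95% interval of -0.755 to 1.55. Exact zeros made up 92.3% to 98.8% of its positions in the 8 libraries. Near the other end of the gene, stretch 2 was almost fully methylated, at 95.7% ± 0.975 in NASH and 97.7% ± 1.06 in ND.

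Trp53, the gene of p53, lies on chromosome 11 (69580348 to 69591873) and starts beside Wrap53. The stretch inside its start, stretch 3 (69580533 to 69580731, 23 positions), measured 1.09%, 0.870%, 0.621% and 2.17% in NASH, and 0%, 0%, 0% and 2.17% in ND. Stretch 2, on the Wrap53 side, had no library above 0.758%. The difference at stretch 3 was 0.644 points (SE 0.707, adjusted p = 0.866, limma). Inside the gene, stretches 5 to 8 were methylated at 82.9% to 97.9% by group mean, apart from ND 3 at 51.7% in stretch 5 where its group otherwise held 91.7% to 95.3%. There ND 3 averaged 88.4% on the plus strand and 15.0% on the minus strand, with 40% of positions listed at 0. Just inside the start, stretch 4 stayed at or under 2.15% in every library, and stretch 1, within Wrap53, was at 18.0% ± 7.65 in NASH and 29.4% ± 8.56 in ND (adjusted p = 0.861, limma).

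Rb1 encodes the retinoblastoma protein, which holds E2F factors off their targets, and spans 133094 bases of chromosome 14 (73192858 to 73325951). It has a dense stretch at each end. Stretch 6, at the high end (73324975 to 73326577, 396 positions), measured 4.56%, 0.808%, 1.41% and 0.672% in NASH and 1.10%, 0.989%, 0.132% and 2.80% in ND. NASH 1 was highest, and the difference of 0.607 points (95% interval -1.73 to 2.94) became -0.293 without it. Stretch 1, at the low end (68 positions), was listed at 0 throughout in 7 libraries and at 1.47% in NASH 4. That library had 1 position above 0. Some or all of these zeros may be positions without reads, so a low level was not shown at this end. Stretch 2, inside the gene 1385 bases from that end, was the most uneven stretch of all 32, at 27.4%, 14.6%, 92.0% and 30.6% in NASH and 34.4%, 22.9%, 74.0% and 65.8% in ND. The groups overlapped over nearly the whole range there. Positions listed at 0 made up 6.25% to 85.4% of the stretch, and every other position in each library was at 50% or more, so these levels follow the share of listed zeros, some of which may be positions without reads. The difference was -8.12 points with a standard error of 18.6. Further inside, stretch 3, which overlaps Lpar6, was at 1.66% ± 2.21 in NASH and 0.698% ± 0.619 in ND, and stretches 4 and 5 were methylated at 93.7% to 98.3% by group mean.

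Apc, the scaffold that marks beta-catenin for destruction, lies on chromosome 18 (34220297 to 34322190). Stretch 1, just inside its low end (34220775 to 34221560, 190 positions), measured 0.588%, 0.526%, 14.1% and 1.05% in NASH 1 to 4 and 14.8%, 0.263%, 0.733% and 0.570% in ND 1 to 4. One library of each diet stood near 14% and the other 6 at or under 1.05%, so the group means of 4.07% and 4.09% differed by -0.015 points (95% interval -9.53 to 9.50). It overlaps the pseudogene Gm10548. Stretch 2, 27064 bases inside the gene, was also low, at 4.83% ± 4.78 in NASH and 4.37% ± 3.32 in ND, whereas stretches 3 and 4 near the high end were methylated at 91.7% to 96.8% by group mean.

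Socs1, the inhibitor of JAK kinases, is a short gene on chromosome 16 (10783808 to 10785536), and a single stretch of 384 positions (10784198 to 10786255) covers most of it and its start. That stretch measured 14.02%, 7.04%, 13.4% and 5.02% in NASH and 7.86%, 7.01%, 7.58% and 20.8% in ND. ND 4 was the highest library and the groups overlapped, with a difference of -0.948 points (SE 3.51, adjusted p = 0.961, limma) that became 2.38 without ND 4. The region around its start was low, at 1.79% ± 1.84 in NASH and 2.39% ± 1.65 in ND over the high end of the gene. Stretch 2, within the neighbouring gene Tnp2, was at 51.2% and 53.1% in NASH 1 and NASH 2, and at 81.5% to 93.4% in the other 6 libraries. The plus and minus strands averaged 78.1% and 24.3% in NASH 1, and 12.5% and 93.75% in NASH 2. Positions listed at 0 made up 31.25% and 43.75% of the stretch in those libraries.

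Myc, the growth-driving transcription factor and the one gene here that is not a brake, lies on chromosome 15 (61985341 to 61990361) and had 5 stretches. At its low end, stretch 2 (61984877 to 61985804, 138 positions) measured 0.145%, 3.34%, 2.11% and 0.616% in NASH and 0.266%, 0.949%, 0.507% and 0.483% in ND. NASH 2 and NASH 3 were above every ND library and NASH 1 below every one, with a difference of 1.002 points (SE 0.777, adjusted p = 0.861, limma). Stretch 3, further inside, was at or under 1.25% in all 8 libraries. Stretch 4 (61987518 to 61988217, 110 positions) follows it and was partly methylated, at 38.2%, 31.1%, 25.1% and 10.0% in NASH and 23.2%, 31.0%, 53.6% and 42.6% in ND. NASH 4 was lowest and ND 3 highest, and the difference of -11.5 points (SE 8.23, adjusted p = 0.861, limma) did not pass. Stretch 1, before the gene, was under 2% in 7 libraries and at 10.3% in ND 3, and stretch 5 was methylated at 93.6% ± 3.20 in NASH and 97.2% ± 1.99 in ND.

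The libraries that stood apart at unmethylated starts mostly did so at CpGs whose opposite strand was listed at 0. Methylation of a CpG is normally carried by the cytosines of both strands, which bisulfite reads measure separately. At Apc stretch 1, ND 1 averaged 29.3% on the plus strand and 0.263% on the minus strand, while NASH 3 averaged 1.40% on the plus and 26.8% on the minus strand. In ND 1, 29 of its 95 CpGs had a cytosine at 50% or more, and in all 29 the opposite cytosine was listed at 0. In NASH 3 the same was true of 25 of 25, within 215 bases. At Cdkn2b stretch 2, NASH 3 had 9 such CpGs, all on the plus strand and all with the minus strand at 0. ND 3 differed there, with 28.3% and 23.0% on the strands and both cytosines at 50% or more in 12 of 25 CpGs. The raised library of Cdkn2a stretch 3, NASH 2, had 24 of 24 CpGs with the opposite strand at 0, and that of Rb1 stretch 6, NASH 1, had 14 of 15. At Socs1 stretch 1, where ND 4 was highest, 29 of 59 were of this kind and 14 were at 50% or more on both strands.

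**Figure D2:**
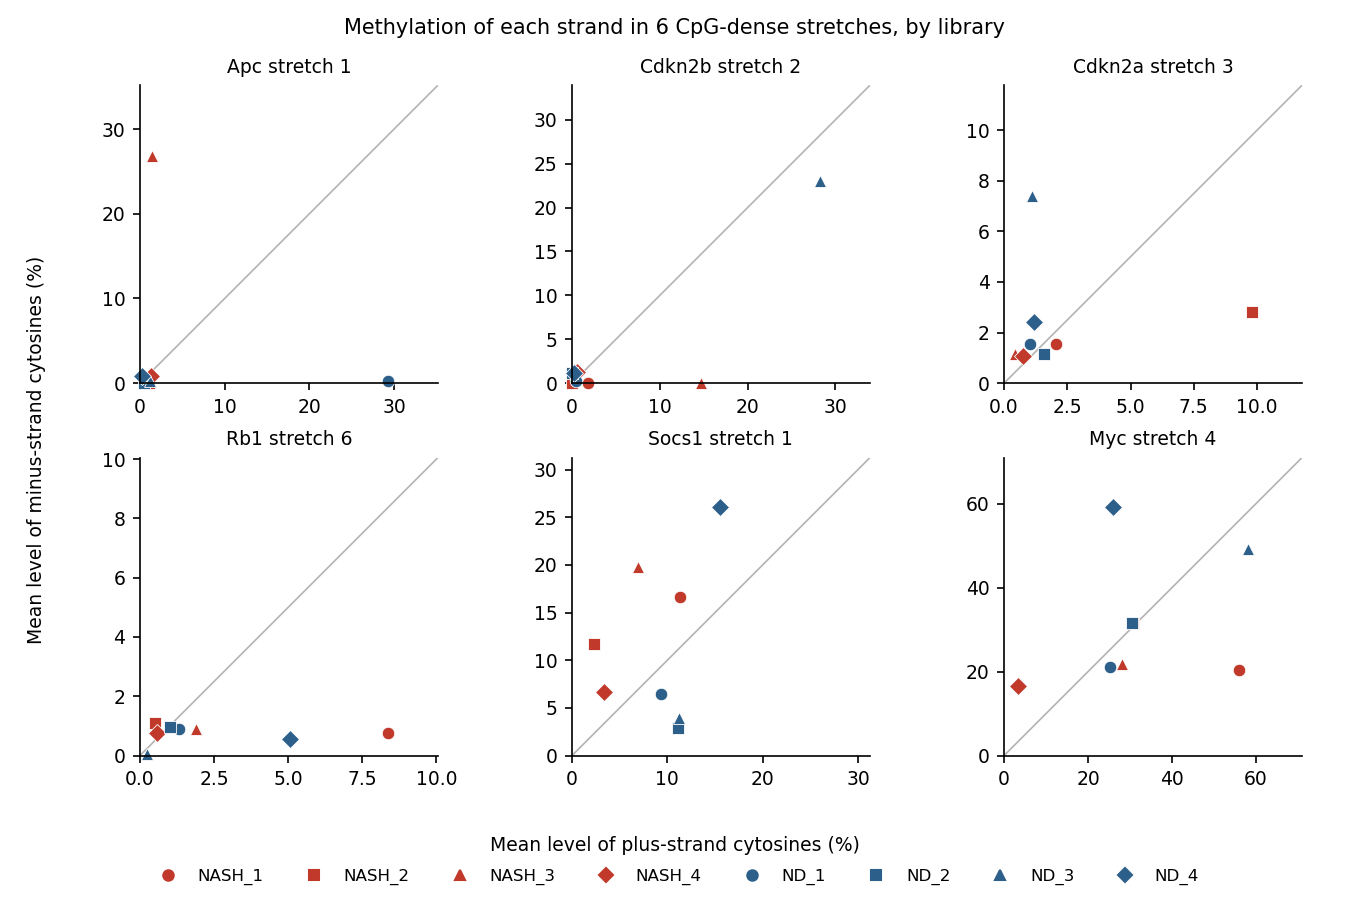
Mean level in percent of the plus-strand cytosines (x axis) against the minus-strand cytosines (y axis) of 6 CpG-dense stretches, one point per library with NASH in red and ND in blue; the grey line marks equal levels and the axes differ between panels. At Apc stretch 1, ND 1 lies along the x axis (29.3% and 0.263%) and NASH 3 along the y axis (1.40% and 26.8%), whereas ND 3 at Cdkn2b stretch 2 lies near the line.

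Single raised libraries occurred at other genes too. Over the table, 8519 stretches at protein-coding gene ends had a median level under 10%, and 1414 of them, 16.6%, had a library at 10% or more. ND 4 was the highest library in 375 of these, the most of any library, and ND 1 in 95, the fewest. Of 1097 such stretches in which that library had at least 5 CpGs at 50% or more, the median share of those CpGs with the opposite strand at 0 was 96.2% (quartiles 81.8% and 100%). The number of reads behind each strand was not in the table, and its part in the pattern was not tested. The difference between diets at the listed genes also lay within the range of other gene-end stretches. Over 10096 of them the median level was 1.61% in NASH and 1.79% in ND, the median difference was -0.0658 points, and the central 90% of differences ran from -4.28 to 4.03. Cdkn2b stretch 2, at -4.49, was the one listed stretch outside that range.

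**Figure D3:**
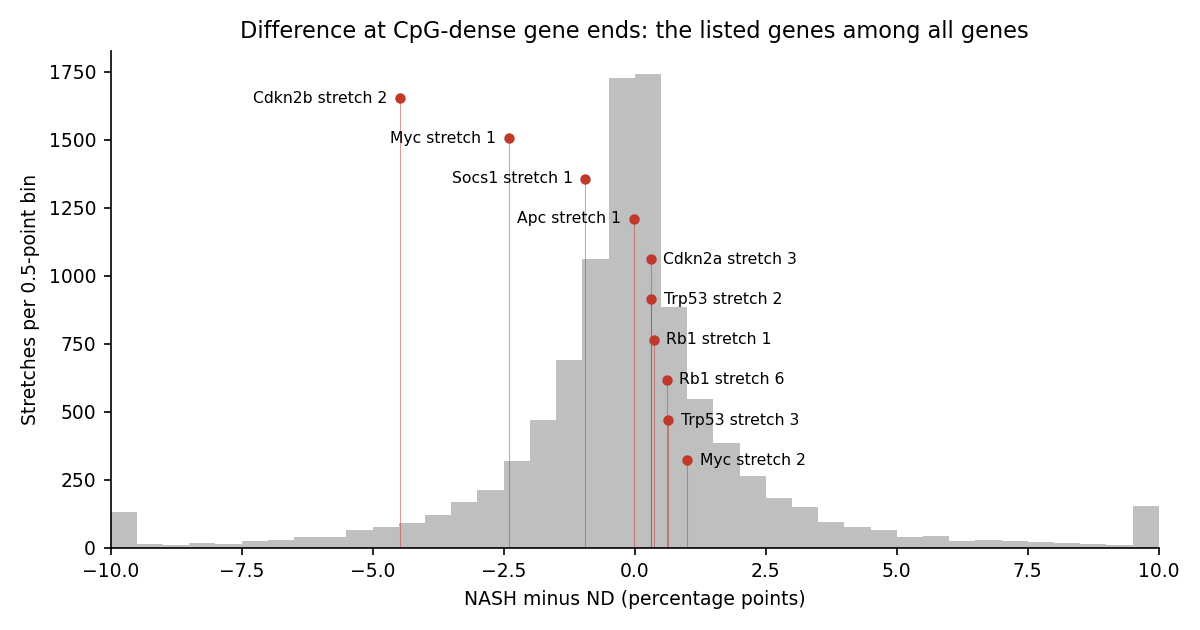
Number of CpG-dense stretches at protein-coding gene ends per 0.5-point bin of the difference NASH minus ND, in percentage points (grey bars; the outermost bars also hold the values beyond 10 points), with the 10 stretches at the ends of the listed genes marked in red at arbitrary heights. The listed stretches run from -4.49 (Cdkn2b stretch 2) to 1.002 (Myc stretch 2), and most lie near 0.

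No region around the dense stretches was called. Shores, the less dense positions within 1000 bases of a stretch, were tested over all 53983 shores of the table, of which 0.298% were called by limma. Of the 32 shores at the listed genes, 0 were called, 6 had an unadjusted p under 0.05 (13.1% of all shores), 9 were higher in NASH and 23 lower. The median difference was -0.433 points, beside -0.335 over all shores, of which 45.0% were higher in NASH. The groups did not overlap in 7 of the 32, all lower in NASH, where 8.36% of all shores did not overlap and 4.28% were lower without overlap. Of these 7, 5 belong to Trp53, and neighbouring shores share positions, so they are not separate observations.

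The largest was at Myc. Its shore around stretch 5, near the high end of the gene, measured 71.7%, 75.2%, 75.4% and 68.5% in NASH and 81.3%, 84.0%, 86.0% and 83.8% in ND. Every NASH library was below every ND library, and the difference of -11.1 points (SE 2.18) had an adjusted p of 0.0728 by limma. The call depends on the zeros: with every exact zero left out, the Myc shore of stretch 5 differed by -11.8 points with an adjusted p of 0.0458. At Trp53, the shore of stretch 7 measured 89.4%, 90.0%, 88.7% and 90.1% in NASH and 93.3%, 92.2%, 93.3% and 93.1% in ND. These groups too were apart, by -3.45 points (SE 0.956, adjusted p = 0.16, limma). The Cdkn1a shore of stretch 2 averaged 84.4% ± 4.34 in NASH and 91.4% ± 2.20 in ND with overlapping groups (difference -6.96, adjusted p = 0.203, limma).

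**Figure D4:**
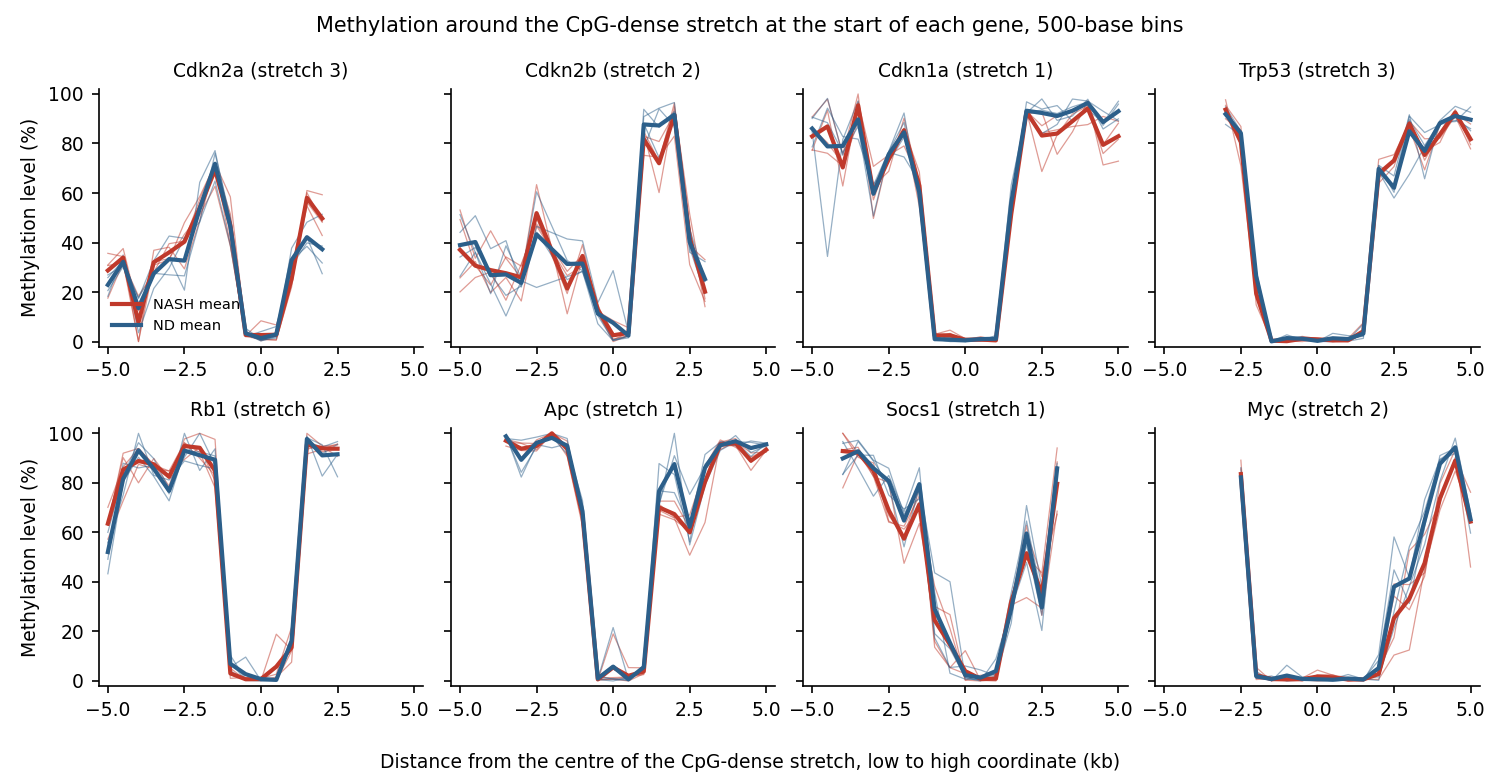
Methylation level in percent in 500-base bins around the centre of the CpG-dense stretch at the start or main dense end of each gene, plotted from low to high coordinate in kb, with thin lines for libraries and thick lines for the means of NASH (red) and ND (blue). All 8 genes show a trough near 0% flanked by rising levels, and the red and blue means part mainly on the flanks, in either direction. NASH is lower on the high-coordinate side at Myc, and higher 1500 bases above the centre at Cdkn2a (58.1% against 42.2%, 6 positions). At Cdkn2a the bin at 1000 bases goes the other way (25.2% in NASH, 32.9% in ND) and that at 2000 bases the same way (49.7% and 37.3%). The tested shore of that stretch differed by -1.81 points (adjusted p = 0.797, limma). The means also part in the trough at Cdkn2b (2.54% in NASH, 7.57% in ND) and, the other way, 500 bases above the centre at Rb1 (5.78% in NASH, 0.431% in ND). Single libraries stood high in these bins, ND 3 at 28.7% for Cdkn2b and NASH 1 at 18.9% for Rb1.

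At the gene ends, taken as 1000 bases outside to 500 bases inside each end of a span, 0 of 16 regions were called, against 0.306% of 28754 ends by limma, and 2 had an unadjusted p under 0.05 (12.5% of all ends). Those were also the 2 ends whose groups did not overlap, both lower in NASH, against a background of 8.36% in either direction and 4.04% lower. The high end of Trp53, away from its start, measured 84.1%, 75.7%, 82.7% and 82.9% in NASH and 86.2%, 89.4%, 90.0% and 88.0% in ND. All NASH libraries lay below all ND libraries there (-7.05 points, SE 2.04, adjusted p = 0.171, limma). The low end of Socs1, also away from its start, measured 48.2%, 48.4%, 44.4% and 49.6% in NASH and 61.5%, 50.9%, 56.4% and 55.7% in ND, a difference of -8.46 points (SE 2.73, adjusted p = 0.221, limma). The 5 ends with both group means under 3%, which were the low ends of Trp53, Rb1 and Myc and the high ends of Rb1 and Socs1, differed by -0.592 to 1.46 points. The low end of Rb1 was listed at 0 throughout in every library but NASH 4, and those zeros may be positions without reads. The Cdkn2a high end averaged 3.03% ± 2.51 in NASH and 2.61% ± 1.19 in ND, and the Cdkn2b high end 9.62% ± 3.23 and 13.6% ± 10.4. Their low ends, away from the starts, were at 6.50% ± 2.01 and 5.59% ± 1.498 for Cdkn2a and at 33.7% ± 8.42 and 35.5% ± 8.36 for Cdkn2b, and the Myc high end was at 84.0% ± 3.83 and 86.1% ± 3.10. Partly or fully methylated ends included both ends of Cdkn1a (80.9% and 78.9% in NASH) and of Apc (44.4% and 90.3% in NASH), which differed from ND by -2.69 to 0.0247 points.

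Whole spans with flanks were called for 9.16% of 14666 genes, and for 0 of the 8 listed genes, of which 2 had an unadjusted p under 0.05 (24.5% of all spans). Those were Trp53, at 50.7%, 50.4%, 50.5% and 50.8% in NASH and 51.9%, 52.4%, 51.1% and 52.0% in ND, and Cdkn1a, at 42.7%, 42.4%, 41.8% and 42.9% in NASH and 43.4%, 43.7%, 43.3% and 43.4% in ND. In both the NASH libraries were all lower, by -1.22 points (adjusted p = 0.128, limma) and -1.01 points (adjusted p = 0.18), and 17.6% of all spans had groups without overlap, 7.99% with NASH lower. The remaining 6 spans ranged from 13.1% in Cdkn2a to 76.9% in Apc by ND mean, and differed by -2.94 points in Myc to 0.252 in Cdkn2a.

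Windows of 1 kb gave single places inside the genes. Of 327 windows 0 were called, as were 0 of 1597867 over the table by limma, with 39 of the 327 at an unadjusted p under 0.05 (10.6% over the table). The groups did not overlap in 11 windows higher and 18 lower in NASH, which is 8.87% of 327 against a background of 6.54% (2.81% higher, 3.74% lower). Rb1 held 7 of the higher and 7 of the lower ones among its 129 windows (10.9%), and Apc 2 and 5 among 105 (6.67%). Trp53 held 4 among 18 (22.2%), all lower, and Cdkn1a 1 higher and 1 lower among 15 (13.3%). Shares in the remaining genes ran from 0% to 8.33%.

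The window with the smallest p of all lay in Apc, 41704 bases inside the gene (34262001 to 34263000, 14 positions). It measured 36.0%, 31.6%, 35.6% and 40.5% in NASH and 13.3%, 15.7%, 22.9% and 23.6% in ND. NASH was higher by 17.1 points without overlap (SE 3.21, adjusted p = 0.0986, limma). Under 14 alternative settings this difference ran from 4.80 to 18.6 points, with adjusted p from 0.0707 to 0.655 by limma. The next window along, named after its values were seen, differed the opposite way, at 87.6% ± 2.35 in NASH and 95.1% ± 2.40 in ND. In Rb1 the window with the smallest p (73244001 to 73245000, 14 positions) measured 64.4%, 63.6%, 60.9% and 63.5% in NASH and 79.9%, 83.2%, 80.3% and 73.3% in ND. It was lower in NASH by a difference of -16.1 points (SE 3.07, adjusted p = 0.101, limma). Under the alternative settings that difference ran from -18.0 to -14.7 points (adjusted p 0.0508 to 0.232, limma). The Cdkn2a window with the smallest p, between the Arf and Ink4a starts (89289001 to 89290000, 22 positions), measured 23.8%, 21.0%, 23.2% and 23.4% in NASH and 14.1%, 11.7%, 15.8% and 17.2% in ND, again without overlap (8.17 points, adjusted p = 0.195, limma). Its difference ran from 4.66 to 9.02 points under the alternative settings (adjusted p 0.106 to 0.663, limma). The corresponding Myc window (61989001 to 61990000) holds stretch 5 and part of its shore, and averaged 81.4% ± 3.48 in NASH and 91.0% ± 0.718 in ND. For Trp53 it averaged 88.8% ± 1.12 and 94.3% ± 2.98, also without overlap. The smallest-p windows of Cdkn2b (78.8% ± 5.43 and 88.6% ± 6.42), Cdkn1a (82.4% ± 7.41 and 91.3% ± 1.96) and Socs1 (77.6% ± 2.95 and 83.6% ± 3.83) had overlapping groups.

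**Figure D5:**
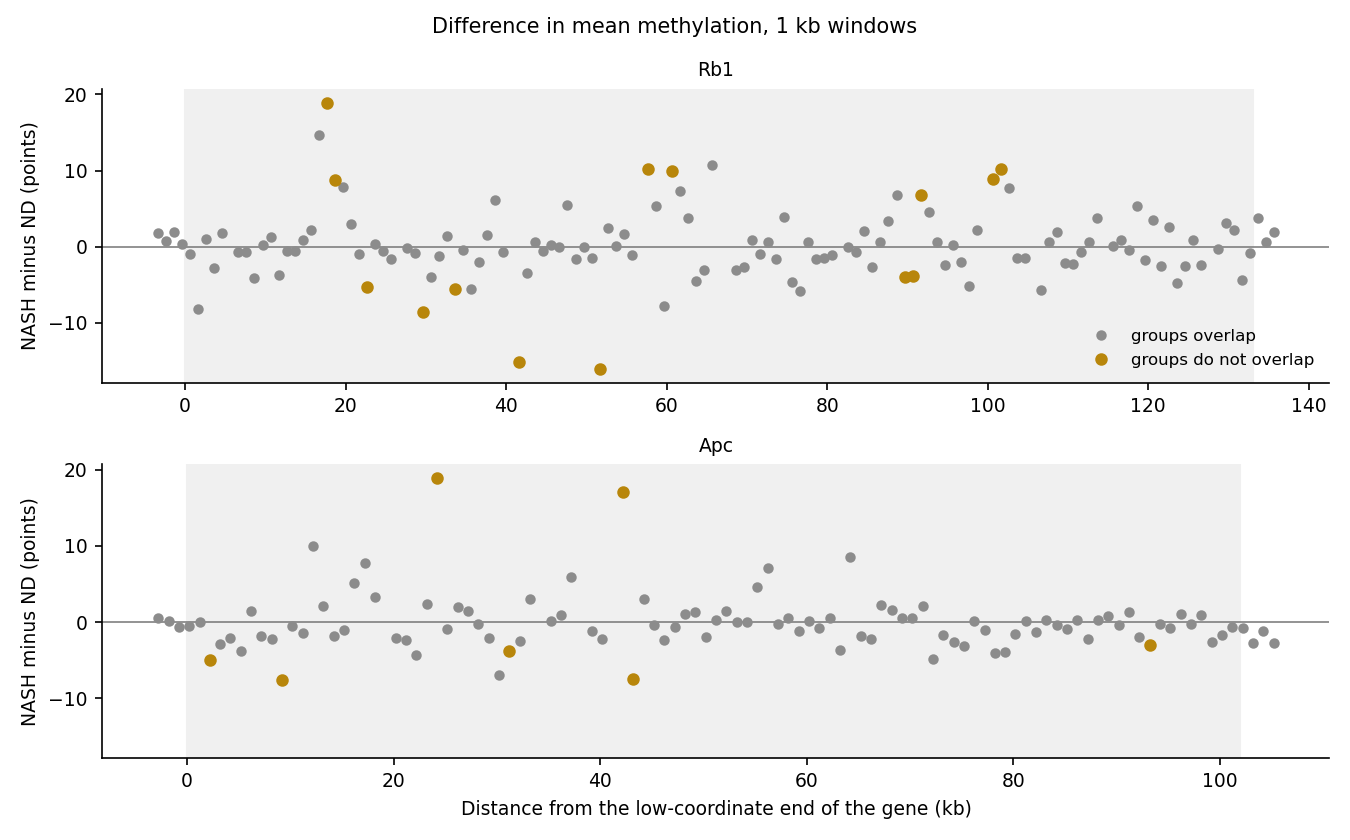
Difference in mean methylation, NASH minus ND in percentage points, of 1 kb windows along Rb1 and Apc against distance in kb from the low-coordinate end, with the gene span shaded and windows whose groups do not overlap in yellow. Such windows lie inside the genes on both sides of 0, reaching 17.1 points at the Apc window with the smallest p and -16.1 at that of Rb1.

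Genes of the same pathways were read from 8 lists holding 154 other genes. No gene end of these lists was called by limma (0 of 212), and of 108 tested spans 3 were called higher and 2 lower in NASH, 4.63% against 9.16% over all spans. In the JAK-STAT and SOCS list 2 of 16 spans were called higher, Stat5b and Il6ra. Stat5b, a transcription factor of growth hormone signalling, was at 58.3%, 58.6%, 59.3% and 59.95% in NASH and 55.0%, 55.5%, 55.2% and 56.4% in ND (3.51 points, adjusted p = 0.00604, limma). Il6ra, the interleukin-6 receptor, was at 62.5% ± 0.605 in NASH and 60.2% ± 0.668 in ND (adjusted p = 0.0264, limma). In the Wnt and beta-catenin list 0 of 18 spans were called higher and 2 lower, although 10 of the 18 had a higher NASH mean. The 2 were Lgr5, a receptor for R-spondins, at 74.2% ± 0.226 and 75.5% ± 0.244 (adjusted p = 0.0493, limma), and Tcf7, at 64.0% ± 0.415 and 65.7% ± 0.516 (adjusted p = 0.0406, limma). Dapk1, a kinase of cell death, was the 1 of 12 spans called higher among genes named as methylated in human liver cancer (72.1% ± 0.875 and 69.0% ± 0.687, adjusted p = 0.0121, limma). That call is a mean over 4480 positions of the whole span, not over a dense start. In that list NASH was higher in 6 of 12 spans, 6 of 22 ends and 2 of 10 CpG-dense stretches. The median differences were -1.39 points at those ends and -1.25 at those stretches, beside -0.218 and -0.0975 over all. The Lgr5 and Tcf7 calls were each lost in all 8 fits that left out a library, and the Il6ra call in 5 of them, with adjusted p up to 0.124, 0.106 and 0.0724. The Stat5b and Dapk1 calls were lost only with every zero left out, at differences of 1.64 and 1.06 points. With every zero left out the Il6ra call was lost as well, at 0.839 points (adjusted p = 0.612, limma). So were those of Lgr5 and Tcf7 (adjusted p = 0.0866 and 0.106, limma).

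No span was called in the other 5 lists. Among kinase inhibitors the ends with the smallest p were at Cdkn3 (11.3% ± 2.61 in NASH, 8.68% ± 1.54 in ND) and Cdkn2c (84.8% ± 2.76, 87.8% ± 2.74). In the p53 list they were at Gadd45b, a stress gene (19.6% ± 0.724, 25.4% ± 0.998, adjusted p = 0.0632, limma), and Perp (9.31% ± 3.66, 4.996% ± 0.925), and in the cell cycle list at Cdk4 (70.1% ± 3.40, 59.7% ± 4.21) and E2f7 (75.6% ± 4.03, 84.6% ± 4.37). For the Myc network they were the spans of Max, its partner (60.2% ± 0.482, 61.8% ± 0.601), and Mxi1, a rival for Max (56.5% ± 0.270, 55.2% ± 0.5504). Other tumour suppressors gave the span of Klf6 (36.1% ± 1.44, 39.7% ± 1.69, adjusted p = 0.0553, limma) and an end of Tsc1 (83.5% ± 2.16, 88.6% ± 1.66).

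Genes that mark liver cell types were read in the same way. All 8 hepatocyte marker spans were called higher in NASH, with a mean over the list of 53.5% to 58.3% in the NASH libraries and 43.6% to 45.3% in ND, all below the library means. They include Alb (46.9% ± 3.98 in NASH, 36.4% ± 1.27 in ND) and Arg1 (61.3% ± 0.877, 50.5% ± 2.15). Lower in NASH were 2 of 9 macrophage spans, Lyz2 and Mpeg1, 2 of 8 neutrophil spans, Itgb2 and Mpo, and 1 of 9 stellate cell spans, Reln. Over all spans 6.01% were called higher and 3.16% lower. The Itgb2 call was lost without NASH 2, NASH 3, NASH 4, ND 2 or ND 3 (adjusted p up to 0.0967, limma), and the Mpo call without ND 1 (0.0501) and with every zero left out (0.0504). The Lyz2 call was lost over the span alone (0.105), and that of the hepatocyte gene Serpina1a with every zero left out (0.0692). Called spans numbered 0 of 7 for endothelial cells, 0 of 3 for lymphocytes and 0 of 8 for cholangiocytes. List means were 60.9% to 61.6% in NASH against 62.5% to 64.5% in ND for macrophages, and 70.3% to 71.8% against 72.7% to 74.2% for neutrophils. These shifts run beside the lower shores of Trp53 and Myc, and their part in those differences was not tested.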

How the data were processed

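The 8 whole-genome bisulfite libraries of liver were read as 1 deposited table of methylation levels in percent per cytosine position, made by the authors from their reads; FastQC and the build mm10 are named in the submitters' processing notes, and which tools aligned and called the reads is not given in the sources used here, nor are filters or depth. This table listed 15 placed chromosomes; 85 unplaced contigs, with 326824 positions, were not used. Positions were checked against CpGs of RefSeq promoter windows (GRCm38.p6): all 231945 matched 1 base above the 1-based coordinate. Gene spans came from RefSeq, without exons or strand. Members and lists were chosen with earlier results of these data known.

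Region levels were unweighted means over listed positions, with at least 6 positions. NASH and ND (4 libraries each) were compared over all regions of each of 5 kinds with limma 3.58.1 (R 4.3.3; moderated variance with a trend on the mean level, two-sided, Benjamini-Hochberg adjustment, called at 0.05), after tests on simulated data; since the unit is percent without counts, no count model was used. Regions with the same value in all libraries were left out, a choice made after the data were seen. Tables and figures used Python 3.11.15, pandas 2.3.3 and matplotlib 3.10.9. Every stretch, both ends, the span and the smallest-p window of each gene were computed; of the pathway and cell type lists, the text names called genes, or otherwise the smallest p-values. A doubtful zero was a 0 whose 10 nearest neighbours had a median of at least 50%.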

Additional observations from a re-analysis of the deposited data

Results flagged for a closer look

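In 110 groups of 4 libraries (each diet at each stretch, end and span of the 8 genes), 21 had a library whose gap to the nearest of the others was large against the range of its group. For normally spread values chance flags about 1 in 20 groups, which is 5.5 here. Levels near 0 are not spread that way, and a lone value beside libraries all listed at 0 is always flagged. Stretches and ends of a gene also share positions, so 21 against 5.5 does not measure an excess. The unmethylated starts gave most of the flagged groups. At Cdkn2b stretch 2, ND 3 was at 25.4% and NASH 3 at 7.26%, where the other libraries of each group were at most 0.684% and 0.941%, and the high end of Cdkn2b repeats this with 29.1% in ND 3 and 14.4% in NASH 3. At Apc stretch 1, NASH 3 was at 14.1% and ND 1 at 14.8%, and over the Apc span NASH 3 was at 77.9% where its group was otherwise at most 76.5%. At Socs1 stretch 1, ND 4 was at 20.8% beside 7.01% to 7.86%. At the Arf start of Cdkn2a, ND 3 was at 4.25% in stretch 3 and NASH 2 at 6.77% over the high end. Myc stretch 1 held ND 3 at 10.3% and NASH 3 at 1.92%, the latter beside 3 libraries listed at 0.

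Lone values above libraries listed at 0 were ND 1 at 0.379% in Trp53 stretch 2, ND 4 at 2.17% in Trp53 stretch 3, and NASH 4 at 1.47% in Rb1 stretch 1 and at 0.980% over the low end of Rb1. In Rb1 stretch 3, which overlaps Lpar6, NASH 3 was at 4.96% beside at most 0.868%. The low libraries of methylated regions were ND 3 at 51.7% in Trp53 stretch 5, NASH 2 at 88.9% in Trp53 stretch 8 and at 75.7% over the high end of Trp53, and ND 2 at 91.0% in Rb1 stretch 4. For ND 3 in Trp53 stretch 5, 8 of 10 CpGs had 1 strand listed at 0 and the other at 50% or more.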

How the results depend on the processing

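No stretch, end, span or 1 kb window of the 8 genes was called under any alternative, and the 1 shore called was the Myc shore of stretch 5 with every zero left out, which makes 1 called shore at these genes against 0. Counts over all genes moved more. Called shores were 161, and 36 with constant regions kept, 84 with doubtful zeros left out, 91 with every zero left out, 809 with 2000-base shores and 0 to 62 without 1 library. Called ends were 88, and 3 with constant regions kept, 273 with no trend, 244 on the logit scale, 0 with every zero left out, 891 with 2000 bases either side of the end and 2 to 17 without 1 library. Called spans were 1344, and 462 with every zero left out and 750 to 1334 without 1 library. Called stretches were 0, and 4 on the logit scale and 0 to 3 without 1 library. Called windows were 0, and 7 with constant regions kept, 1957 with no trend, 15 on the logit scale, 308 with at least 12 positions, 127 with doubtful zeros left out, 1687 with every zero left out, 1 with 500-base windows and 0 to 2 without 1 library. The cause of these moves was not tested. Leaving out 1 library called 0 regions of the 8 genes of any kind.

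The deviations of same-numbered libraries correlated at -0.0645 to 0.124 over spans and 0.00272 to 0.0287 over ends. Differently numbered pairs ran from -0.18 to 0.165 over spans and from -0.0388 to 0.0195 over ends. Whether same-numbered libraries share more than the number cannot be told from such correlations. With the number as a block, the calls were 0 shores, 0 ends, 811 spans, 0 stretches and 0 windows.

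With 4 libraries a diet and single libraries reaching 25.4% at an otherwise unmethylated start, the precision differed between starts: the 95% intervals reached up to 9.50 points at Apc stretch 1 and 7.99 at Cdkn2b stretch 2, but 1.55 at Cdkn1a stretch 1 and 2.94 at Rb1 stretch 6. Zeros that stand for positions without reads would pull levels down, by an amount the table does not show. Regions under 6 positions were not tested.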
